A study of Cyprinus carpio with 2 samples.

Results

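The genes dazl, nanos3, pou5f3 and lin28a, which mark germ cells or early embryonic cells in fish, were followed in juvenile gonads of common carp (Cyprinus carpio). Members were the rows whose first gene name is one of these 4 symbols. They came to 8 unigenes, which are numbered transcript units of the authors' transcript set, out of 22634 in all, with 2 unigenes for each gene. RNA from immature testis and immature ovary of juvenile carp aged 110 to 130 days post hatch had been sequenced, with 1 testis library and 1 ovary library. No treatment or genotype was labelled, and the number of fish behind each library is not labelled.

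Germ cells keep their identity largely through RNA-binding proteins that decide which transcripts are translated and which are destroyed. Dazl binds messenger RNAs and promotes their translation during gamete formation. Nanos3 is a zinc finger protein that works with the CCR4-NOT deadenylase to silence transcripts, and in zebrafish it maintains primordial germ cells and, later, the production of oocytes. Pou5f3 is the fish relative of the mammalian pluripotency factor Oct4. In zebrafish its maternal RNA is loaded into the egg, and the protein works with Nanog and SoxB1 factors when the embryo's own genome is switched on. Lin28a binds RNA too and blocks maturation of the let-7 microRNAs.

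The deposited value of a unigene is its reads divided by a scaling factor of its library, called units here. Units rose in steps of 1.73 in testis and 2.31 in ovary, and 1 step was taken as 1 read. The unigenes analysed held 1926860 testis reads and 4311799 ovary reads, sums over annotated unigenes and not library depths, with a median of 29 testis and 35 ovary reads per unigene. Each of them had at least 1 read in both libraries. Any transcript without reads in a library is therefore absent from the ranks and shares below. The value columns name no tissue. Column B was taken as testis and column A as ovary, because the 171 unigenes of the authors' testis list were all higher in B and the 127 of their ovary list all higher in A. A single library per tissue leaves every difference without a replicate check, so no test between tissues was made. Intervals of 95% are exact and cover counting error only, except those of list medians in the closing section. The median unigene was 1.78-fold lower in testis (log2 ratio -0.83), and folds are given relative to that median unless called as deposited. Unigene lengths were not used here, so values are compared within a unigene and not between genes. In whole tissue, fewer cells of a type and less RNA per cell cannot be told apart.

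Of the 4 genes, nanos3 and pou5f3 were far lower in testis than in ovary, lin28a was near the limit of counting in testis, and dazl was close to even. Both unigenes of nanos3 and of pou5f3 were at least 4-fold lower in testis and both of dazl within 4-fold. Of the lin28a unigenes, 1 did not reach 5 units in either library, and the other reached it in ovary only and was past 4-fold by its ratio but not by its whole interval. Among all 21649 unigenes with at least 5 units, 12.6% were at least 4-fold lower in testis and 15.3% at least 4-fold higher. None of the 8 unigenes is in either of the authors' lists of tissue-enriched genes, so the authors' selection set no direction here.

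**Figure D1:**
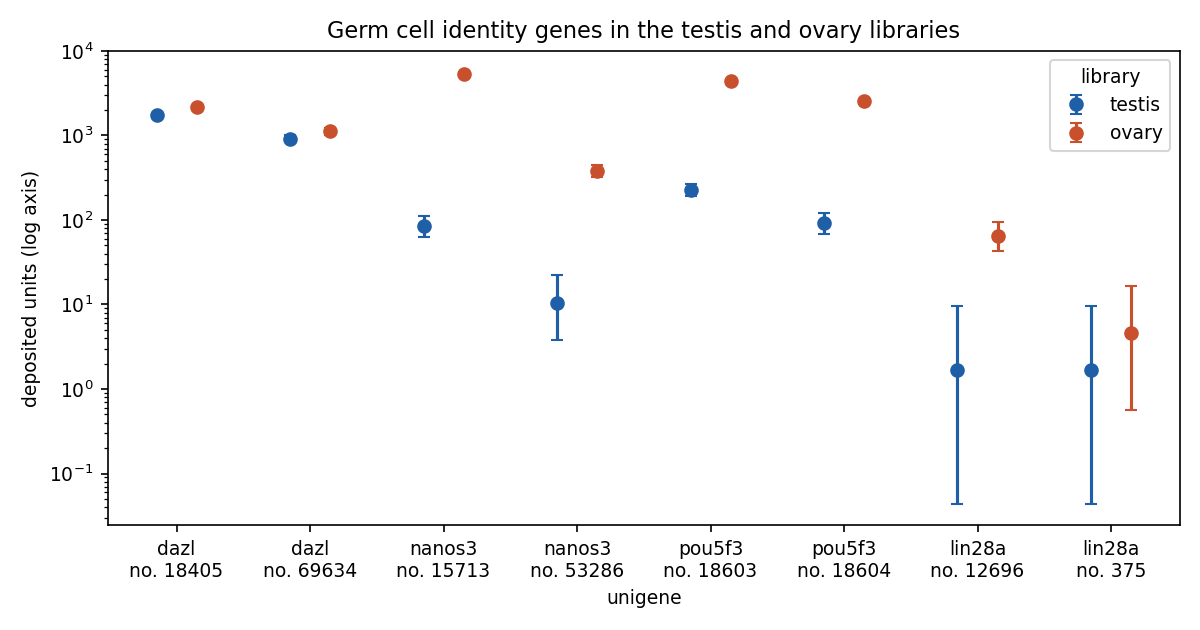
Deposited units (log axis) of the 8 member unigenes in the testis library (left point of each pair, blue) and the ovary library (right point, orange), with bars for the exact 95% Poisson interval of the reads. The dazl points of both libraries lie close together, the nanos3 and pou5f3 points lie more than 10-fold apart, and the bars of lin28a unigene 375 overlap.

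Nanos3 showed the lowest testis over ovary ratio of the 4 genes by point estimate, although the interval of lin28a reaches beyond it. Its main unigene, Unigene_15713, had 84.9 units (49 reads) in testis, against 5367 units (2324 reads) in ovary. Relative to the median unigene it was 35.6-fold lower in testis (95% interval 26.8 to 48.2), and 122 of the 22634 unigenes (0.539%) had a lower ratio. The minor one, Unigene_53286, held 10.4 units (6 reads) in testis and 381.1 units (165 reads) in ovary. That made it 20.6-fold lower in testis (95% interval 9.28 to 57). The interval of Unigene_15713 lay within that of Unigene_53286, so these reads do not separate their ratios. Summed over both, nanos3 had 55 testis reads and 2489 ovary reads and was 33.9-fold lower in testis (95% interval 26 to 45.2). As deposited, without the shift to the median, the difference was 60.3-fold. The deposited protein name of both unigenes is Nanos 1, while their first gene name is nanos3. In zebrafish the germ cell gene nanos3 was earlier called nanos1, and which name fits the carp transcripts was not tested. Another gene named nanos1 in the table had 7 testis reads and 4 ovary reads over 2 unigenes, and its ratio interval, from 0.593 to 10.9 (testis over ovary), included 1.

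Pou5f3 was also low in testis, less so than nanos3. The deposited protein name of both unigenes is the general one POU domain protein, so the name pou5f3 rests on their first gene name. Unigene_18603 had 226.9 units (131 reads) in testis, against 4387.9 units (1900 reads) in ovary, and was 10.9-fold lower in testis (95% interval 9.11 to 13.1). Unigene_18604, the next number in the transcript set, had 91.8 units (53 reads) in testis, against 2538 units (1099 reads) in ovary, and was 15.6-fold lower (95% interval 11.8 to 20.9). Both unigenes thus lay on the same side with overlapping intervals, and the 2 summed were 12.2-fold lower in testis (95% interval 10.5 to 14.3). The share of pou5f3 reads in Unigene_18604 was 28.8% in testis (exact 95% interval 22.4 to 35.9) and 36.6% in ovary (34.9 to 38.4). These intervals overlap only slightly, and overlap does not show that the shares, or the ratios of the 2 unigenes, were equal. Other genes of the POU family, looked at after their values were seen, differed less with their unigenes summed. The 4 unigenes of pou2f1a together were 1.36-fold lower in testis (95% interval 1.08 to 1.71), from 122 testis and 221 ovary reads. The 4 of pou6f1 together were 1.38-fold lower (95% interval 1.15 to 1.65), from 186 testis and 341 ovary reads. Single unigenes ran from log2 -1.04 to 0.27 for pou2f1a and from -2.04, past 4-fold lower, to 0.27 for pou6f1.

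Lin28a was scarce in both libraries, and both its unigenes had 1 testis read, the lowest number that any unigene had. Unigene_12696, named as a fragment of the protein, had 1.7 units (1 read) in testis, against 64.7 units (28 reads) in ovary. Its ratio was 21-fold lower in testis, with a 95% interval of 3.47 to 859 that fixes its direction but hardly its size. Unigene_375, with the deposited name Protein lin-28 homolog A, had 1 testis read and 2 ovary reads. It is the member under 5 units, and no direction can be read from it at this depth. Both together gave 2 testis and 30 ovary reads, 11.3-fold lower in testis (95% interval 2.85 to 97.2).

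Dazl was the one member gene whose libraries held similar values. The deposited protein name of both dazl unigenes is Deleted in azoospermia-like. Unigene_18405 had 1733.8 units (1001 reads) in testis, against 2150.1 units (931 reads) in ovary. Unigene_69634 had 919.7 units (531 reads) in testis and 1117.8 units (484 reads) in ovary. Relative to the median unigene both were slightly higher in testis, by 1.43-fold (95% interval 1.31 to 1.57) and 1.46-fold (95% interval 1.29 to 1.66). As deposited both were slightly lower in testis, by 1.24-fold and 1.22-fold, so the direction of dazl follows the scaling. Unigene_69634 held 34.7% of dazl reads in testis (exact 95% interval 32.3 to 37.1) and 34.2% in ovary (31.7 to 36.7), shares whose intervals overlap.

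**Figure D2:**
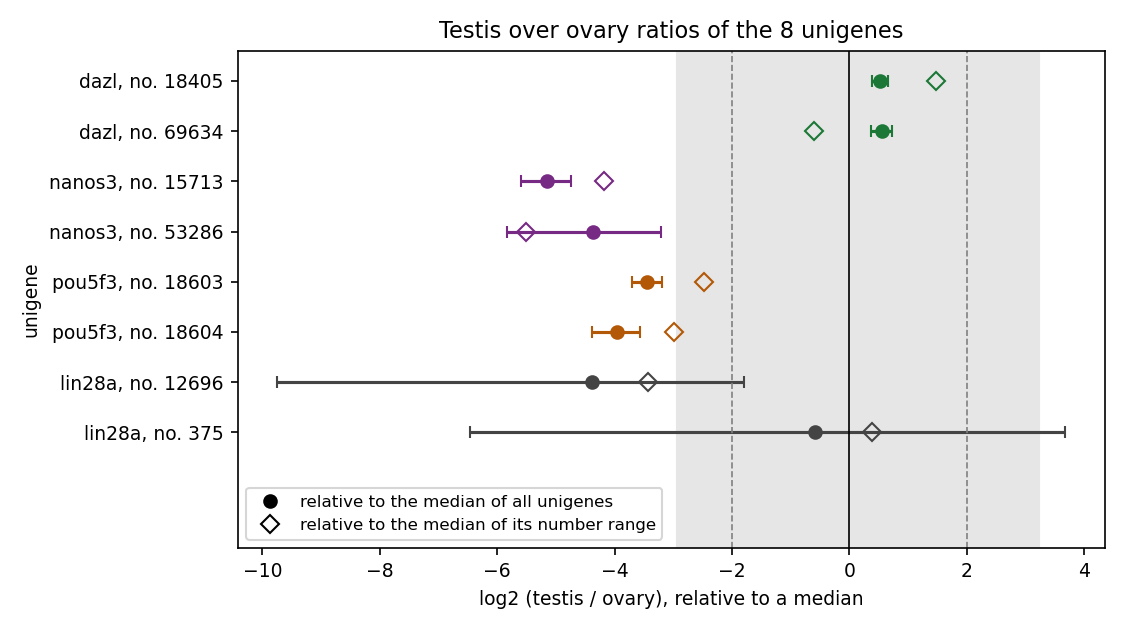
Log2 of testis over ovary for the 8 member unigenes, relative to the median of all unigenes (filled points, exact 95% intervals) or to the median of unigenes in the same number range (open diamonds). The grey band spans the 5th to 95th percentile of all unigenes and dashed lines mark 4-fold, and the filled points of both nanos3 and both pou5f3 unigenes lie left of the band while those of dazl lie near 0. The diamond of pou5f3 unigene 18603 lies inside the band, and the diamonds of dazl lie on opposite sides of 0.

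Ratios of all unigenes moved with the unigene number, which changes the side of 1 dazl and 1 lin28a unigene. Among the 11904 unigenes with lower numbers the median log2 ratio was -1.79, whereas it was 0.32 among the 10730 with higher numbers. Against its own number range, dazl Unigene_18405 was 2.80-fold higher in testis, whereas dazl Unigene_69634 was 1.52-fold lower, although the 2 have nearly the same ratio. Both nanos3 unigenes, one from each range, stayed lower in testis, by 18.2-fold for Unigene_15713 and 45.8-fold for Unigene_53286. The pou5f3 unigenes, both in the lower range, were 5.58-fold and 7.98-fold lower in testis than the median of that range. Of the lin28a unigenes, both in the lower range, Unigene_12696 was 10.8-fold lower in testis and Unigene_375, with 3 reads in all, 1.3-fold higher. What sets the difference between number ranges was not tested. Folds and counts of the gene lists below are relative to the median of all unigenes, so this difference enters them too. Scaling both libraries to equal total reads also moved the values, to log2 ratios of 1.28 for dazl, -4.34 for nanos3 and -2.86 for pou5f3.

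The authors' deposited table gives each unigene its own p-value, with no header to say how it was computed. In the authors' deposited table the smallest among the 8 is 0.0562 for nanos3 Unigene_53286, followed by 0.087 for nanos3 Unigene_15713 and 0.093 for pou5f3 Unigene_18604. The dazl values in the authors' deposited table are 0.908 and 0.907.

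**Figure D3:**
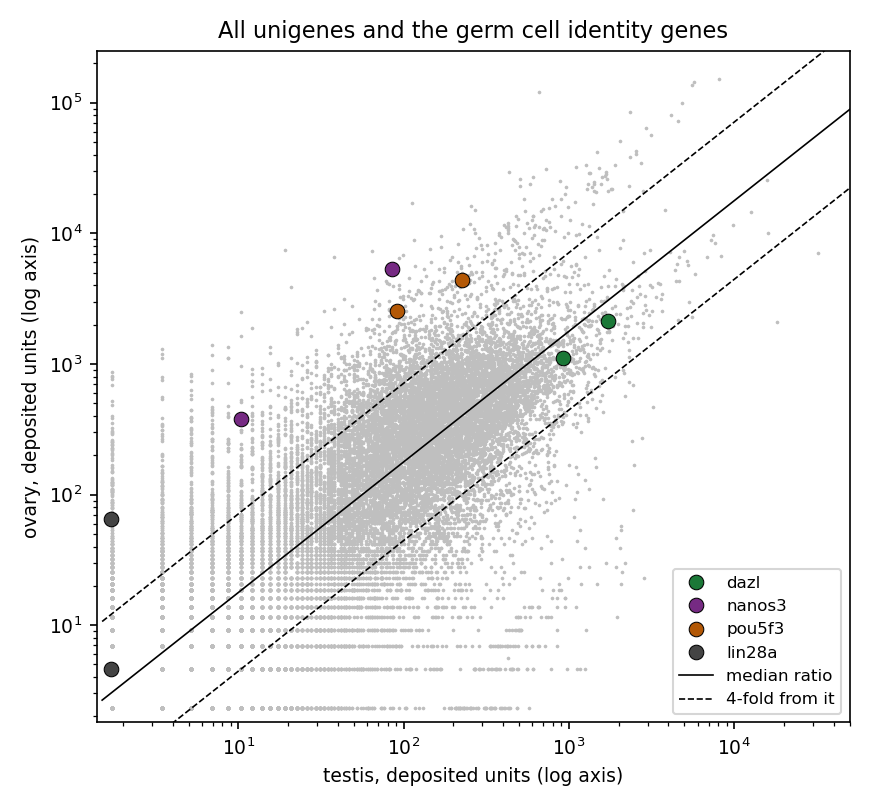
Deposited units of all 22634 unigenes in testis (x, log axis) and ovary (y, log axis), with member unigenes in colour, the median ratio as a solid line and 4-fold from it as dashed lines. The nanos3 and pou5f3 points lie above the upper dashed line, on the ovary side, and the dazl points lie between the solid line and the lower dashed line.

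Relations between the genes inside a library do not depend on scaling between libraries, since the factor cancels, as does transcript length when the libraries are compared. The difference between number ranges need not cancel, since dazl has a unigene in each range and both pou5f3 unigenes are in the lower one. For every 100 dazl reads there were 3.59 nanos3 reads in testis, against 175.9 in ovary. Nanos3 per dazl was thus 49-fold lower in testis (exact 95% interval 37.1 to 65.8). Pou5f3 counted 12 reads per 100 dazl reads in testis, against 211.9 in ovary, which is 17.6-fold lower in testis (95% interval 14.9 to 20.9). Lin28a per dazl was 16.2-fold lower in testis, with a wide interval of 4.11 to 140. Nanos3 also differed from pou5f3, being 2.78-fold lower per pou5f3 read in testis (95% interval 2.03 to 3.84). Lin28a could not be separated from pou5f3 at this depth, since its ratio per pou5f3 read was 1.09 (testis over ovary) with an interval of 0.125 to 4.34.

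**Figure D4:**
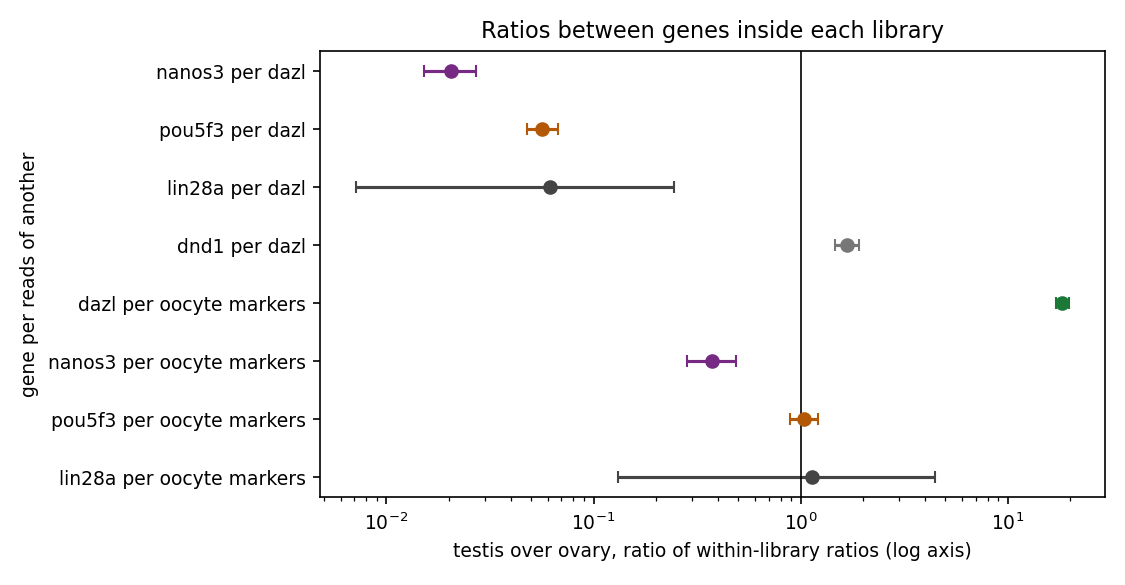
Testis over ovary for the reads of one gene divided by those of another in the same library (log axis, exact 95% intervals), where 1 means the same relation in both libraries. Nanos3, pou5f3 and lin28a per dazl lie left of 1, dazl per oocyte marker reads lies far right at 18.4, and pou5f3 per oocyte marker reads lies at 1.04.

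Markers of oocytes moved in the same direction as nanos3 and pou5f3. All 8 marker symbols (zp2, zp3, gdf9, bmp15, zar1, btg4, figla and org) had rows, with 27 unigenes, 1 of them in the authors' ovary list, that summed to 22641 units in testis and 511863 in ovary. Of these 27, 26 were at least 4-fold lower in testis, beside 12.6% of all unigenes with at least 5 units. Log2 ratios of the 27 ran from -4.64 to -1.64 with a median of -3.87. Both pou5f3 unigenes and nanos3 Unigene_53286 fell inside that span, nanos3 Unigene_15713 (log2 -5.15) lay below all 27, and both dazl unigenes (log2 0.52 and 0.55) above all 27. Per oocyte marker read, pou5f3 was 1.04 times as abundant in testis as in ovary (95% interval 0.891 to 1.21), an interval that includes 1. That value depends on which markers are summed, since zp genes held 86.6% of the marker reads in testis and 84.7% in ovary. Without them pou5f3 per marker read was 1.19 (testis over ovary, 95% interval 1.01 to 1.39). Per bmp15 read pou5f3 was 3.13-fold lower in testis (95% interval 2.25 to 4.32), and per btg4 read it was 1.96-fold higher (95% interval 1.65 to 2.33). Nanos3 per oocyte marker read was 2.67-fold lower in testis (95% interval 2.04 to 3.56), 8.7-fold lower per bmp15 read and 1.41-fold lower per btg4 read. Dazl per oocyte marker read was 18.4-fold higher in testis (95% interval 17 to 19.8), 5.63-fold higher per bmp15 read and 34.7-fold higher per btg4 read. The part that the number of oocytes has in the values of the members was not tested.

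Markers of other cell types that are in the authors' lists are no separate check of the tissue labels, since these lists named the columns. The Sertoli cell genes amh, sox9a, cldn11a and wt1a summed to 2106 testis reads and 30 ovary reads, but all 4 are in the authors' testis list. Cldn11a and wt1a have rows only through that list, so their direction was fixed in advance. Of the meiotic genes, sycp1 (183 testis reads and 1 ovary read) and meiob (322 and 2) also have rows only through the authors' testis list. Spo11, which makes the breaks that start recombination, had 238 testis reads and 238 ovary reads. The only symbol of the granulosa cell list with a row, fshr, had 191 testis reads and 1 ovary read. Fshr carries the deposited protein name of the thyrotropin receptor, and it was not read as a sign of granulosa cells. Its row too comes only from the authors' testis list. Of genes of tissues outside the gonad, 6 of 7 skeletal muscle unigenes with at least 5 units were at least 4-fold lower in testis. So were 2 of 3 liver and pancreas unigenes, beside 12.6% of all unigenes with at least 5 units. Against their own number range, ckmb (log2 -1.43), both myhz1.1 unigenes (-1.53 and -1.50) and tnnt3 (-1.79) fell short of 4-fold. Tnni2b.1 (-4.49), tnni2b.2 (-3.54), apoa2 (-3.83) and ins (-4.15) did not. Read sums were 48 testis and 983 ovary reads for muscle and 11 testis and 374 ovary reads for liver and pancreas. A single unigene held most of each ovary sum, tnni2b.1 with 758 reads and ins with 322, and both are in the authors' ovary list. No row matched the Leydig and theca cell, spermatid and erythrocyte markers, so these were not analysed here.

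Other germ plasm and germ cell factors went both ways. Over 34 unigenes of 13 symbols, 10 were at least 4-fold lower in testis (29.4%) and 1 at least 4-fold higher (2.94%). Among all unigenes with at least 5 units these shares were 12.6% and 15.3%. The 10 belonged to buc, ca15b, tdrd7b, asz1 and figla, the last also an oocyte marker above, and the 1 to dnd1. Against their own number range, asz1 (log2 -1.04) and tdrd7b Unigene_19151 and Unigene_19150 (-1.20 and -1.07) fell short of 4-fold. Those of buc, ca15b and figla, from -4.99 to -2.47, and dnd1 Unigene_15044 (3.15) did not. The median log2 ratio of the 34 unigenes was -0.28, beside -0.07 for all unigenes with at least 5 units. On the ovary side stood buc, which organises the germ plasm of the zebrafish oocyte. Its 4 unigenes together had 1277 testis and 20001 ovary reads and were 11.7-fold lower in testis (95% interval 11.1 to 12.4). Also on that side were ca15b, a carbonic anhydrase with 1 unigene in the authors' ovary list, 16.5-fold lower in testis with both unigenes summed, and figla, an oocyte transcription factor, 12.6-fold lower. On the testis side stood dnd1, an RNA-binding protein needed for primordial germ cell survival in zebrafish. Its 3 unigenes together had 924 testis and 511 ovary reads and were 2.41-fold higher in testis (95% interval 2.16 to 2.69), and also higher as deposited, by 1.36-fold. Per dazl read, dnd1 was 1.67-fold higher in testis (95% interval 1.46 to 1.91). The Tudor gene tdrd6, a germ granule component, was 3.08-fold higher in testis with 6 unigenes summed. Most of its reads were in Unigene_72847 (3065 testis and 1281 ovary reads). The log2 ratio of that unigene, 1.67, was 0.52 against its own number range.

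Pluripotency and early embryo factors were spread to both sides, with 9 of 31 unigenes at least 4-fold lower in testis (29%) and 6 at least 4-fold higher (19.4%). Among all unigenes with at least 5 units the shares were 12.6% and 15.3%. The split largely followed unigene number. All 9 lower unigenes lay in the lower number range, and the 6 higher ones, except that of ctcf, in the higher range. Against its own range, eomesa moved from log2 -2.12 to -1.16 and stat3 Unigene_63228 from 3.04 to 1.89. Nanog Unigene_15135 (-1.49), sox11b (-1.59) and mycn Unigene_39137 (1.26) also fell short of 4-fold there, and the rest did not. Foxh1 was still at -3.40 and myca Unigene_70324 at 3.21. Unigenes of 7 genes made up the lower side. Nanog, a homeobox partner of Pou5f3 in zebrafish, was 8.65-fold lower in testis with 2 unigenes summed (95% interval 7.41 to 10.1), from 176 testis and 2030 ovary reads. The SoxB1 factor sox19b had 8 testis and 175 ovary reads and was 16.4-fold lower (95% interval 8.14 to 38.6). The Nodal co-receptor tdgf1, with 1 unigene in the authors' ovary list, was 16.2-fold lower with 2 unigenes summed, and foxh1, a transcription factor of Nodal signalling, 20.6-fold lower. The ventral homeobox gene vox had 2 testis and 45 ovary reads. The last of the 7 were sox11b and the T-box gene eomesa, 5.88-fold and 4.36-fold lower. Sall4, a zinc finger factor of stem cells, lay just inside 4-fold at 3.88-fold lower. The 6 unigenes of the testis side belonged to myca (2 of its 4), tcf3a, stat3, ctcf and mycn. The ctcf one, Unigene_22311, had 6 testis reads and 1 ovary read, and the mycn one, Unigene_39137, had 4 and 1. Their intervals (0.971 to 368 and 0.528 to 263, testis over ovary) included 1. With unigenes summed, the Myc gene myca was 8.94-fold higher (95% interval 6.22 to 13.2), the E protein gene tcf3a 3.68-fold, the chromatin insulator gene ctcf 2.98-fold (2159 testis and 967 ovary reads) and the signal transducer stat3 2.27-fold higher. Much of the ctcf value went with unigene number. Most ctcf reads were in Unigene_72271, Unigene_72272 and Unigene_72273, which lay at log2 0.60, 0.46 and 0.50 against their own range. Ctcf Unigene_18832 of the lower range lay at 1.85. Mycn had 5 testis and 2 ovary reads in all. The per-unigene median of this list, 0.27, became -2.04 when unigenes of a symbol were summed, so the list as a whole had no stable direction. Per pou5f3 read, nanog was 1.41-fold higher in testis (95% interval 1.13 to 1.76), while sox19b, at 0.745 with an interval of 0.312 to 1.53, could not be separated from pou5f3.

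**Figure D5:**
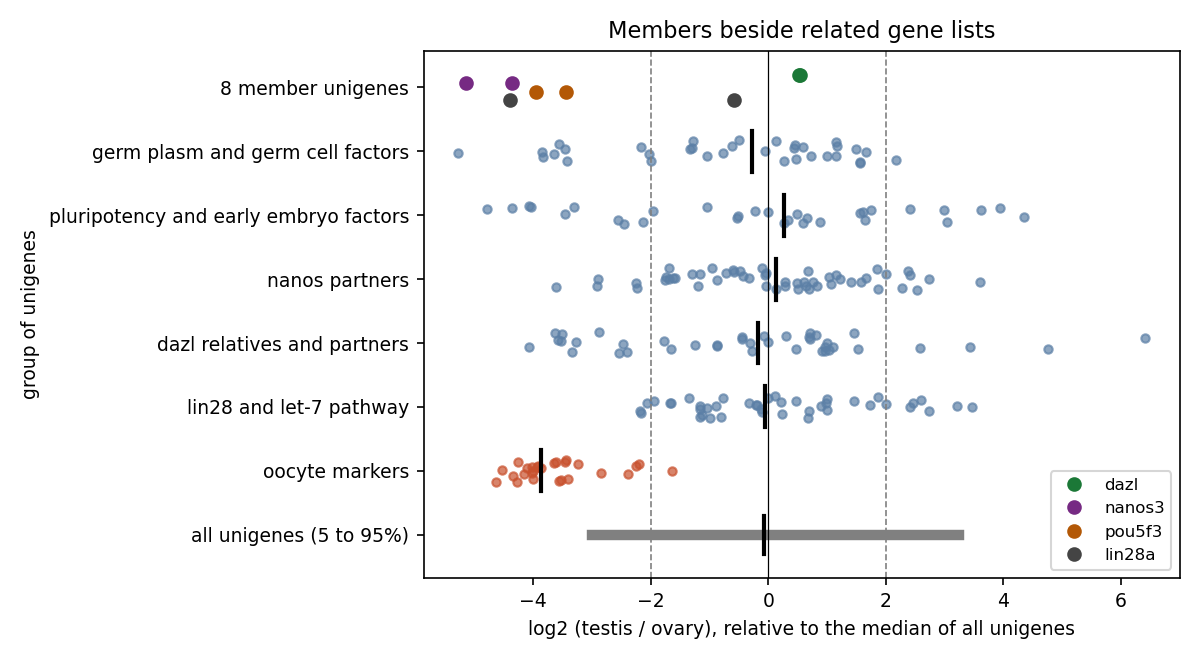
Log2 of testis over ovary, relative to the median of all unigenes, for the 8 member unigenes (coloured by gene), for unigenes with at least 5 units in 5 related gene lists and the oocyte markers (black bars are medians), and for all unigenes with at least 5 units (grey bar, 5th to 95th percentile). List medians lie between -0.28 and 0.27 with wide spread, while oocyte markers cluster at a median of -3.87, beside pou5f3 and nanos3.

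Partners of Nanos had a median near that of all unigenes (log2 0.13 over 53 unigenes), with 5 at least 4-fold lower in testis (9.43%) and 7 at least 4-fold higher (13.2%). Over all unigenes with at least 5 units these shares were 12.6% and 15.3%. All 7 higher unigenes lay in the higher number range, and the 5 lower ones, except cpeb1b Unigene_60983, in the lower range. Against that higher range, cnot3b Unigene_64597 was at log2 1.12 and cnot6b Unigene_53743 at 1.26, both short of 4-fold. Deadenylase subunits ran to both sides with unigenes of a symbol summed. Cnot7 was 1.04-fold lower in testis (95% interval 0.897 to 1.2, including 1) and cnot8 3.16-fold lower, while cnot6b was 3.43-fold higher from 90 testis and 35 ovary reads. This order changed with unigene number. Against their own range, cnot7 lay at log2 -1.20, below the cnot8 unigenes at -0.72 and -0.66. The main cnot6b unigene, Unigene_53744, lay at 0.72. Among single unigenes, cnot3b Unigene_64597 with 29 testis and 8 ovary reads and cnot6b Unigene_53743 with 4 testis reads and 1 ovary read were among the 7 at least 4-fold higher, the interval of Unigene_53743 (0.528 to 263, testis over ovary) including 1. Cpeb1b, a regulator of poly(A) tails in oocytes, was 7.5-fold lower in testis with 2 unigenes summed. Btg2, an antiproliferative factor that binds the deadenylase, was 12.3-fold lower in its most uneven unigene and 6.33-fold lower with 3 summed. The cpeb4 unigene named by the rule had 13 testis and 3 ovary reads, while all 7 cpeb4 unigenes together were 2.56-fold lower in testis.

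Relatives and partners of Dazl included more unigenes low in testis, 11 of 40 (27.5%), against 4 at least 4-fold higher (10%), with a median log2 ratio of -0.17. Among all unigenes with at least 5 units the shares were 12.6% and 15.3%. The 11 came from few genes, namely dynll2a (all 5 of its unigenes), pabpn1l, rbpms2b, pabpc1l and dzip1l, and the 4 from pabpc1b, dazap2 and dzip1. The poly(A)-binding proteins split by gene. Pabpc1l, the form of the egg and early embryo, was 9.51-fold lower in testis (95% interval 8.05 to 11.3), and pabpn1l 11.1-fold lower. The general forms pabpc1a and pabpc1b were 2.31-fold and 3.6-fold higher in testis. Much of the pabpc1a value went with unigene number. Against their own range, its unigenes of the higher range lay at log2 -0.18, -0.11, 0.30 and 0.38, and Unigene_16867 of the lower range at 1.67. The pabpc1b unigenes lay at 1.92, 1.43 and 2.28 against their own range. Pabpc1l Unigene_18569 lay at -2.32 and pabpn1l at -2.67 and -2.38. Rbpms2b, an RNA-binding protein of zebrafish oocytes, was 11.2-fold lower, and the dynein light chain gene dynll2a 8.81-fold lower with 5 unigenes summed. Dazap2, named for its binding to DAZ proteins, was 2.14-fold higher in testis with 3 unigenes summed, although its single unigenes ran from log2 -0.32 to 4.76. Dzip1, another gene named for DAZ binding, had 200 testis and 20 ovary reads and was 13.3-fold higher, and its larger unigene, with 193 testis and 3 ovary reads, is in the authors' testis list. Its other unigene had 7 testis and 17 ovary reads. The related dzip1l went the other way, 5.84-fold lower in testis (95% interval 3.77 to 9.45) from 23 testis and 179 ovary reads.

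Genes around Lin28 and let-7 had a median log2 ratio of -0.05 over 42 unigenes with at least 5 units, of which 3 were at least 4-fold lower in testis (7.14%) and 7 at least 4-fold higher (16.7%). For all unigenes with at least 5 units the shares were 12.6% and 15.3%. All 3 lower unigenes lay in the lower number range and all 7 higher ones in the higher range. Against their own range, none of the 3 stayed 4-fold lower (log2 -1.20 and -1.10 for dgcr8, -1.21 for hmga1a). Of the 7, only ago1 Unigene_43224 (2.07, from 7 testis reads and 1 ovary read) and dicer1 Unigene_53226 (2.32) stayed 4-fold higher. Intervals of dicer1 Unigene_50207 (0.528 to 263) and zcchc11 Unigene_61785 (0.321 to 210) included 1. The microprocessor subunit dgcr8 was 4.33-fold lower in testis (95% interval 3.9 to 4.82), and hmga1a, a chromatin protein, 4.52-fold lower from 46 testis and 277 ovary reads. Igf2bp3, which stabilises maternal RNAs in zebrafish, was 3.53-fold lower. Dicer1, the enzyme that cuts microRNA precursors, was 2.23-fold higher in testis over 10 unigenes (95% interval 1.73 to 2.87), and trim71, a let-7 target in other animals, 3.86-fold higher over 5. The exonuclease dis3l2, which degrades let-7 precursors, was 1.38-fold lower, with an interval (0.996 to 1.94) that included 1.

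The named unigenes nearest to each member were found by their distance in log2 testis and log2 ovary units, over 2 libraries, so likeness rests on a level and a ratio alone. Nearest to dazl Unigene_18405 were rpl14 (1036 testis and 951 ovary reads), atf4 (1023 and 979) and rpa1 (1058 and 913), with 12 unigenes within a distance of 0.25. For pou5f3 Unigene_18603 they were si:ch211-223m11.2, si:ch211-69g19.2 and lrp13, the last with 138 testis and 1804 ovary reads, and 16 unigenes lay within that distance. None lay within it of nanos3 Unigene_15713. The closest there was si:ch73-14h10.2, at 0.309 with 54 testis and 2813 ovary reads, followed by dhrs13a.2 and si:dkey-19b23.12. The unigene LOC101884910 had the same 1 testis and 28 ovary reads as lin28a Unigene_12696, and si:dkey-220o21.3 and LOC100000832 differed from it by 1 ovary read.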

How the data were processed

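Deposited tables of 1 testis and 1 ovary library, grouped by their tissue labels, were analysed. Per the file headers, the values are a signal, a base mean per unigene that the authors scaled per library, with their log2 fold change of column B over A and a p-value. For the aligner, the assembly and the counting tool the sources used here give no name. Steps in the deposited values gave whole reads within 0.01 read for 22633 testis and 22632 ovary values, including all 8 members, and whether a step is 1 read or a pair was not tested. The 147 unigenes found only in the authors' testis list were added to the 22487 of the expression table.

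Ratios are deposited units in testis over ovary with no pseudocount, since no value was 0. Intervals are exact Clopper-Pearson 95% intervals of the share of reads, and exact conditional intervals for ratios between genes (scipy 1.17.1, Python 3.11.15). No count model was fitted, since 1 library per tissue leaves no spread. On simulated reads for all 22634 unigenes, 96.6% of 2178 intervals held the true ratio, and 98.5% of 200 unigenes changed 8-fold were at least 4-fold from the median in the right direction. The 200 were drawn only from unigenes with more reads than either lin28a unigene. All others shared 1 ratio, only counting error was simulated, and the shift with unigene number was left out. The 6023 symbols with several unigenes can split reads between near-identical copies, so single unigenes are uncertain.

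Members, gene lists and tests were chosen with earlier results of these data known. List symbols matched the first gene name, alone or followed by a, b or a dot and a digit. Named genes were the members, the 3 unigenes nearest to each, the 2 highest and 2 lowest unigenes of each list with at least 20 units, and 28 set symbols, of which 11 had a row. Other list members were named after their values were seen. A gene that this rule names is not reported here. In the RefSeq annotation of assembly ASM1834038v1, 1 of the 4 symbols (pou5f3) had an entry. It was used for names only.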

Additional observations from a re-analysis of the deposited data

How the results depend on the processing

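Of 78 recomputed values, 53 stayed within the interval of the reported one, 18 moved outside it and 7 changed sign. For list medians that interval ran between 2 ranked values of the list's own unigenes, -0.58 to 0.70 for Nanos partners. It does not cover counting error and counts unigenes of 1 library per tissue as separate draws. A list median that stayed within it is therefore no sign of stability. Dazl (log2 0.53) became -0.30 as deposited, 1.28 with equal total reads, 0.26 with a pseudocount of 10 units, 1.48 against its number range and 0.96 against its expression decile. Nanos3 (-5.08) became -5.92 as deposited, -4.34 with equal total reads and -4.19 against its number range. Pou5f3 (-3.61) became -4.44, -2.86 and -2.48 in the same order, -3.84 with a pseudocount of 10 units and -3.00 against its decile. Number range and decile used the unigene with most reads. Lin28a (-3.49) kept its sign and stayed within its interval in all 9 alternatives, an interval too wide to test it. List medians changed sign for Nanos partners with at least 20 units (-0.044), for the Lin28 list without a filter (0.12) and with a pseudocount of 1 unit (0.026), and for pluripotency factors with symbols summed (-2.04). With other oocyte markers as divisor, chosen after seeing the data, pou5f3 (0.057) became -1.65 and lin28a (0.18) -1.53 per bmp15 read. The causes were not tested. No paired analysis was possible because each tissue has 1 library, and for the same reason no replicate could be left out. Low read numbers limit lin28a and nanos1.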
